A study of Mus musculus with 4 samples.

Results

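The circadian clock genes are described here across the 4 libraries of a study of mouse intestine. The genes were chosen by symbol: Arntl (now Bmal1), Clock, Per1, Per2, Per3, Cry1, Cry2, Dbp, Tef and Hlf. All 10 were found among the 20749 genes that could be formed from the exon blocks (merged RefSeq exons of mm9) that the authors had matched reads to, and all 10 had reads in every library. The labels give total tissue of small intestine or colon from C57BL/6 mice, of 9 to 10 weeks per the study's methods, which name the regions as jejunum and distal colon. The mice had no treatment and, per the study's methods, free access to food under a light and dark cycle. The cDNA fragmented libraries were made from polyadenylated RNA by oligo-dT primed SMART cDNA synthesis and carry no strand information. The RNA fragmented libraries were made with a whole transcriptome kit that ligates adaptors to the RNA and keeps its strand. Their labels give ribosomal RNA-depleted RNA as the input, whereas the study's methods describe polyadenylated RNA for this kit, so whether these are the libraries of the methods is not known, and RNA selection cannot be told apart from the rest of the protocol. There was 1 library for each tissue and protocol. The time of day at which tissue was taken is not given in the sources used here, so a difference in clock phase cannot be told apart from a difference in level at one phase.

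The circadian clock of mammalian cells is a feedback loop of transcription. The proteins of Arntl and Clock bind E-boxes and activate Per and Cry genes, whose proteins then repress that activation. Nr1d1 and Nr1d2, whose proteins bind RORE elements, repress Arntl, and the PAR bZIP factors Dbp, Tef and Hlf act through D-boxes on output genes. In most tissues Arntl RNA peaks at about the opposite time of day from Dbp, Nr1d1 and the Per genes, and in the gut the rhythm follows feeding as well as light. The level of such a gene relative to Arntl within 1 library is therefore a readout that needs no scaling between libraries.

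The letters of these elements were looked for in promoters from RefSeq (GRCm38.p6, 250 bases before to 50 after each start site), where all of the 10 genes but Per2 were matched, 9 genes with 14 promoters. The E-box CACGTG, which reads the same on both strands, stood in 4 of the 14 promoters, those of Per1, Cry1 and Tef, against 7.15% of all 32851 promoters. Counted by gene this was 3 of 9, against 8.09% of the 27025 genes with a promoter. The D-box TTATGTAA or its reverse complement TTACATAA stood in 1 of the 14, that of Per3, against 0.938% of all promoters. The RORE core TAGGTCA or TGACCTA stood in 1 of the 14, a promoter of Arntl, against 2.61% of all promoters. The windows below show these letters in capitals with 10 bases on either side where the window reaches so far, on the strand of the gene, since the loop described above is built on them. A match is a description of the letters only.
Per1 E-box, chr11:69098773-69098798, plus strand, 166 bases before the start: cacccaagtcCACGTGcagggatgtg
Cry1 E-box, chr10:85185099-85185124, minus strand, 60 bases before the start: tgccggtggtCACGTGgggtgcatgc
Tef E-box, chr15:81802536-81802561, plus strand, 127 bases before one start: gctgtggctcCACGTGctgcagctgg
Tef E-box, chr15:81811266-81811291, plus strand, 138 bases before another start: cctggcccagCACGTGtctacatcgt
Per3 D-box, chr4:151044806-151044833, minus strand, 158 bases before the start: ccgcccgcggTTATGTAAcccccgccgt
Per3 D-box, chr4:151044853-151044880, minus strand, 205 bases before the start: gacccgcgcgTTATGTAAggtactcggg
Arntl RORE, chr7:113207531-113207557, plus strand, 30 bases after a start: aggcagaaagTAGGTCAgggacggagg

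The depth of the libraries limits these values. The cDNA fragmented libraries held 22484041 uniquely placed reads for small intestine and 24798934 for colon, and the RNA fragmented libraries held 2035386 and 3478387. These were 29.0% and 29.8% of all reads of the cDNA libraries, but 5.59% and 9.28% of those of the RNA libraries. The 10 genes together had 3778, 5915, 1098 and 1758 reads in small intestine cDNA, colon cDNA, small intestine RNA and colon RNA fragmented libraries. In that order, which is kept below, reads on the strand of the gene were 50.8%, 51.6%, 99.7% and 99.5% of them. Levels are given in RPKM, reads per kilobase of exon blocks per 1000000 uniquely placed reads, and intervals are 95% intervals for counting error only. They treat each read as independent, while reads without molecular identifiers are not independent molecules, so the intervals can be too narrow. For Arntl, 322 reads in small intestine cDNA began at 298 start points, and 163 reads in colon RNA at 93. Without replicates of a tissue within a protocol, no spread between animals enters such an interval.

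The libraries also differed in ways other than tissue and protocol. The small intestine cDNA library held 1751 reads of Xist against 31, 9 and 5 in the other libraries, and no read of Eif2s3y, Uty or Kdm5d, which had 40 to 1191 reads in each of the others. Ddx3y, also on the Y chromosome, had 19 reads there against 992, 85 and 170. The study describes its tissues as taken from the same individuals, while these counts differ between the small intestine and colon libraries of the cDNA pair as they would between a female and a male. Sex and animal therefore cannot be told apart from tissue in the cDNA ratios, nor from protocol in the small intestine ratios of RNA to cDNA. Through this library they also enter the fitted tissue and protocol differences below. Tissue labels held: all 4 small intestine markers were higher in small intestine and all 4 colon markers higher in colon, in both pairs. The 9 smooth muscle markers summed to 3.52 and 7.19 times more in colon than in small intestine, 10 neuron and glia markers to 1.54 and 5.90 times more and 5 adipocyte markers to 4.86 and 6.00 times more. The 9 epithelium markers summed to 0.526 and 1.63 times the small intestine level, 6 immune cell markers to 0.551 and 0.825 times. All 10 neuron and glia markers and all 5 adipocyte markers were higher in colon in both pairs, and without the most abundant of each, Vip and Fabp4, the sums were 2.32 and 4.46 times and 7.90 and 8.75 times those of small intestine. The low epithelium sum in the cDNA pair rested on Krt20, at 7525 RPKM in small intestine and 2503 in colon. Without Krt20 the ratios were 1.33 and 1.92, and 6 of the 9 markers were higher in colon in the cDNA pair and 4 in the RNA pair. The 6 pancreatic acinar markers summed to 6.52, 288, 1949 and 16.9 RPKM, and 6 stress and glucocorticoid response genes to 202, 100, 178 and 165 RPKM. One of these genes is Tsc22d3, which is also among the further clock genes below, and without it they summed to 66.1, 48.2, 146 and 135 RPKM. Of these lists, 2 neuron and glia markers were at 0 reads in small intestine cDNA and 1 in small intestine RNA, 2 acinar markers were at 0 in small intestine cDNA and 2 colon markers in small intestine cDNA. The part of these differences in the clock gene values was not tested, and in whole tissue fewer cells of a type and less RNA per cell cannot be told apart.

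Across the 10 genes, Tef and Dbp led in every library and their intervals overlapped in each, while in small intestine RNA the interval of Dbp also overlapped that of Clock. The last exon block of Dbp overlaps Sphk2. Without it Dbp stood at 2.93, 5.10, 22.4 and 27.8 RPKM in small intestine cDNA, colon cDNA, small intestine RNA and colon RNA. In small intestine cDNA 4 of the other genes lay above that value and in colon cDNA 3, but in each RNA library only 1. The other genes kept their own last blocks here, and cDNA reads gathered toward the 3' ends. These places are therefore not like for like and do not measure reads of Sphk2. Per1 was the lowest in both cDNA libraries, Cry1 in small intestine RNA and Per2 in colon RNA. The genes spanned 0.265 to 8.91 RPKM in small intestine cDNA, 0.438 to 14.7 in colon cDNA, 3.42 to 30.0 in small intestine RNA and 2.46 to 33.7 in colon RNA. Their ranks among the genes detected in a library ran from the 16.9th to the 69.1st percentile in small intestine cDNA and from the 27.6th to the 84.7th in colon RNA. In small intestine RNA the 7 genes from Per1 down to Cry1 could not be ordered between neighbours, since each interval overlapped that of the next gene.

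**Figure D1:**
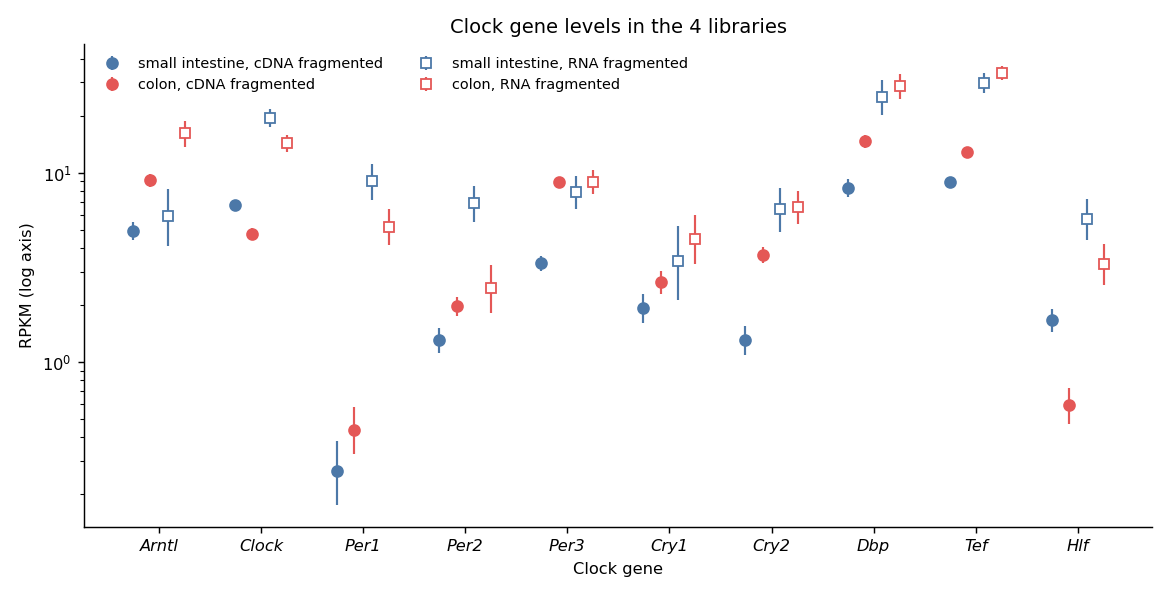
RPKM (log axis) of the 10 clock genes in the 4 libraries, with filled circles for cDNA fragmented and open squares for RNA fragmented libraries, blue for small intestine and red for colon, and bars for 95% counting intervals. Per1 lies under 0.5 RPKM in both cDNA fragmented libraries and at 5.20 or more in both RNA fragmented libraries.

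The activators Arntl and Clock lay on opposite sides of an equal level in the tissues, by either protocol. Arntl (chromosome 7, 120350979 to 120457636, mm9) had 322 reads in small intestine cDNA, 657 in colon cDNA, 35 in small intestine RNA and 163 in colon RNA, or 4.93, 9.12, 5.92 and 16.1 RPKM. Both colon libraries lay above both small intestine libraries. The colon to small intestine ratio of Arntl was 1.85 (1.62 to 2.12) in the cDNA pair and 2.73 (1.88 to 4.05) in the RNA pair. It was the one clock gene of the 10 whose interval lay above 1 in both pairs, as did 27.9% of the 12771 genes detected in all libraries. Clock (chromosome 5, 76641202 to 76733573), whose protein is the partner of ARNTL, stood at 6.73, 4.77, 19.5 and 14.4 RPKM from 1131, 885, 297 and 374 reads. Its ratio was 0.709 (0.649 to 0.775) in the cDNA pair and 0.737 (0.631 to 0.861) in the RNA pair, so colon was lower in both.

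The Per genes encode repressors of the loop, and their tissue ratios differed between the protocols. Per1 (chromosome 11, 68912458 to 68923457) had 28, 51, 86 and 85 reads, or 0.265, 0.438, 9.00 and 5.20 RPKM. Both RNA libraries exceeded both cDNA libraries, in reads as well as in RPKM. Per2 (chromosome 1, 93312559 to 93355905) had 171, 286, 82 and 50 reads, or 1.30, 1.98, 6.90 and 2.46 RPKM. It was highest in small intestine RNA, and the intervals of the colon libraries overlapped. Per3 (chromosome 4, 150377764 to 150418731) had 446, 1323, 96 and 185 reads, or 3.33, 8.96, 7.92 and 8.93 RPKM, with small intestine cDNA the low library and overlapping intervals among the rest. Such overlaps across protocols depend on scaling, since the median gene had an RNA to cDNA ratio of 1.60 in colon. Relative to it the log2 ratio in colon was -0.69 (-0.92 to -0.46) for Per3 and -0.36 (-0.83 to 0.07) for Per2.

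The colon to small intestine ratio turned with the protocol for Per1 and Per2. Per1 was 1.65 (1.02 to 2.72) in the cDNA pair and 0.578 (0.423 to 0.790) in the RNA pair. Per2 was 1.52 (1.25 to 1.84) in the cDNA pair and 0.357 (0.246 to 0.513) in the RNA pair. Intervals on opposite sides of 1 were found in 10.4% of all genes. The cDNA side of this rests on scaling: the median gene had a colon to small intestine ratio of 1.31 in the cDNA pair and 1.27 in the RNA pair, and relative to it the log2 ratio of Per1 was 0.33 (-0.36 to 1.05) and that of Per2 0.21 (-0.07 to 0.49) in the cDNA pair, both intervals holding 0. In the RNA pair they were -1.13 (-1.58 to -0.68) and -1.83 (-2.37 to -1.30) relative to the median. Per3 was 2.69 (2.41 to 3.0) in the cDNA pair and 1.13 (0.877 to 1.46) in the RNA pair.

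Of the Cry genes, whose proteins repress ARNTL and CLOCK together with PER, Cry1 (chromosome 10, 84594445 to 84647799) had 131, 198, 21 and 47 reads, or 1.93, 2.65, 3.42 and 4.48 RPKM. Its tissue ratios were 1.37 (1.09 to 1.72) and 1.31 (0.768 to 2.31). Cry2 (chromosome 2, 92243804 to 92274226) had 129, 399, 57 and 100 reads, or 1.31, 3.68, 6.41 and 6.58 RPKM. The ratio of Cry2 was 2.80 (2.29 to 3.45) in the cDNA pair, next to that of Per3 with an overlapping interval, and 1.03 (0.734 to 1.45) in the RNA pair.

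The PAR bZIP genes, which carry the output of the loop, did not share one tissue direction in the cDNA pair, while in the RNA pair the intervals of Dbp and Tef held 1 and that of Hlf lay below it. Dbp (chromosome 7, 52960617 to 52965573) had 315, 611, 86 and 167 reads, or 8.35, 14.7, 25.2 and 28.6 RPKM, and tissue ratios of 1.76 (1.53 to 2.02) and 1.14 (0.871 to 1.49). Its last exon block lies over Sphk2 on the other strand. In the RNA libraries all 34 and all 57 reads of that block lay on the strand of Dbp, so the block was counted for Dbp, and it held 76.2%, 76.4%, 39.5% and 34.1% of the reads of Dbp. In the cDNA libraries, which keep no strand, reads of Dbp and Sphk2 cannot be told apart in this block. Tef (chromosome 15, 81633103 to 81657291) had 893, 1422, 272 and 522 reads, or 8.91, 12.9, 30.0 and 33.7 RPKM, with ratios of 1.44 (1.33 to 1.57) and 1.12 (0.968 to 1.31). Hlf (chromosome 11, 90197849 to 90252231) had 212, 83, 66 and 65 reads, or 1.66, 0.591, 5.72 and 3.30 RPKM. Its ratios of 0.355 (0.272 to 0.460) and 0.576 (0.403 to 0.824) put colon lower in both pairs, opposite to the cDNA ratios of Dbp and Tef.

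In the cDNA pair 8 of the 10 intervals lay above 1, as did 50.3% of all genes, and 2, those of Clock and Hlf, lay below it, as did 23.1%. In the RNA pair 1 lay above, against 38.5% of all genes, and 4 below, against 19.8%. Relative to the median gene, 5 intervals lay above and 2 below in the cDNA pair, against 33.7% and 36.3% of all genes. In the RNA pair 1 lay above it and 4 below, against 26.1% and 28.4%. Intervals below 1 in both pairs were found for Clock and Hlf, and for 11.2% of all genes. By the study's rule for enhanced expression, a level at least 3 times that of the other tissue after 1 RPKM is added to the latter, none of the 10 genes passed in either pair, against 6.08% of genes in the cDNA pair and 10.2% in the RNA pair. A gene under 3 RPKM in both tissues cannot pass this rule, whatever its ratio. Per1, Per2, Cry1 and Hlf were such genes in the cDNA pair.

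**Figure D2:**
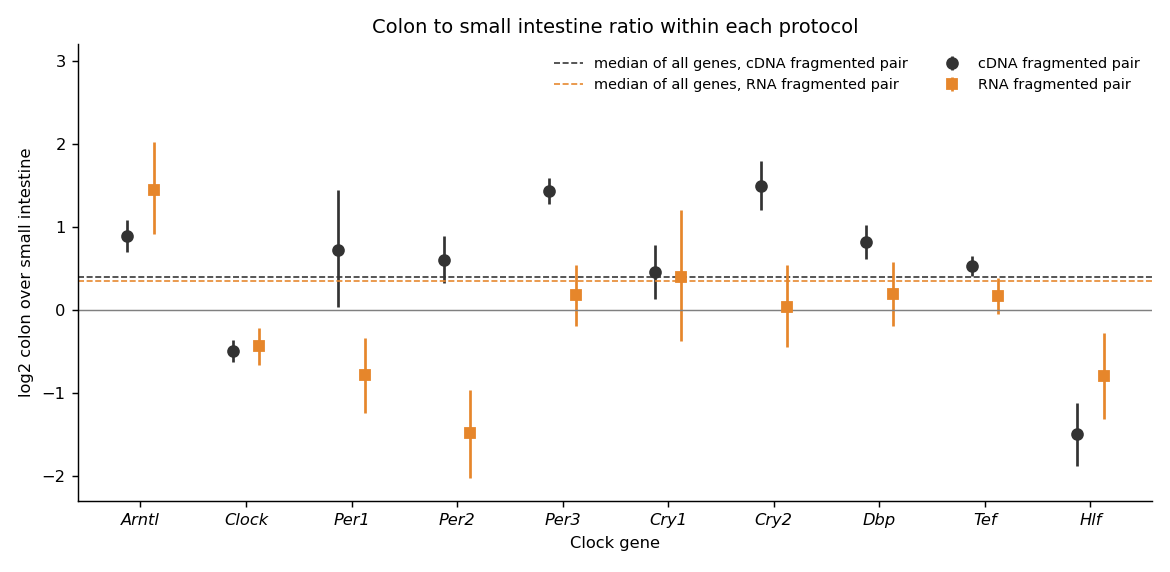
The log2 colon to small intestine ratio of the 10 clock genes in the cDNA fragmented pair (black circles) and the RNA fragmented pair (orange squares), with 95% counting intervals, and dashed lines at the median of all genes in each pair. Arntl lies above both medians and Clock and Hlf below them in both pairs, while Per1 and Per2 lie above 0 in the cDNA pair and below it in the RNA pair.

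The difference between the pairs was measured by dividing the RNA ratio by the cDNA ratio. The interval of this quotient lay below 1 for 6 of the 10 genes and above 1 for Hlf alone, and it held 1 for Arntl, Clock and Cry1. Among all genes 23.7% of intervals lay below 1 and 26.7% above it. Per2 had the lowest quotient of the 10 at 0.235 (0.158 to 0.351), the 4.0th percentile of all genes. Per1 followed at 0.350 (0.202 to 0.607), Cry2 at 0.366 (0.250 to 0.536) and Per3 at 0.419 (0.320 to 0.549). Dbp had 0.646 (0.482 to 0.867) and Tef 0.778 (0.657 to 0.921). The quotient of Clock was 1.04 (0.871 to 1.24) and that of Hlf 1.62 (1.06 to 2.49). The median over the 10 genes was 0.709, beside 1.03 over all genes. With 1 library a group the protocol, the animals and the time of collection cannot be told apart in this quotient.

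The ratios to Arntl asked whether the libraries stood at different points of the cycle. Dbp over Arntl was 1.69 (1.45 to 1.98) in small intestine cDNA, 1.61 (1.44 to 1.80) in colon cDNA, 4.25 (2.87 to 6.30) in small intestine RNA and 1.77 (1.43 to 2.20) in colon RNA. The first pair and colon RNA had overlapping intervals and small intestine RNA stood above them. Per2 over Arntl was 0.264 (0.219 to 0.318), 0.217 (0.188 to 0.249), 1.17 (0.785 to 1.73) and 0.153 (0.111 to 0.210), again with small intestine RNA the high library. Per1 over Arntl was 0.0538 (0.0365 to 0.0791), 0.0480 (0.0361 to 0.0638), 1.52 (1.03 to 2.25) and 0.322 (0.248 to 0.419). Hlf over Arntl was 0.338 (0.284 to 0.401), 0.0648 (0.0515 to 0.0814), 0.967 (0.642 to 1.46) and 0.204 (0.153 to 0.273), lower in colon in both pairs.

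Going from small intestine to colon in the RNA pair, the ratios of Per1, Per2, Per3, Dbp, Tef and Hlf to Arntl were all lower, at between 0.131 and 0.417 of their small intestine values, and all 6 intervals lay below 1. So did the intervals of 59.1% of the 13005 other genes set against Arntl, with a median change of 0.465, since Arntl itself was at the 85.1st percentile of the tissue ratios of this pair. A fall against Arntl was therefore common to most genes. The 6 ratios share the 35 reads of Arntl in small intestine RNA. In the cDNA pair the same 6 ratios changed by between 0.192 and 1.45 times. There the intervals of Hlf and Tef lay below 1 and that of Per3 above it, and those of Per1, Per2 and Dbp held 1. Of all other genes 52.4% lay below 1 and 14.6% above it there, with a median change of 0.709. The change of Dbp over Arntl was 0.951 (0.786 to 1.15) in the cDNA pair and 0.417 (0.266 to 0.653) in the RNA pair. Nr1d1 over Arntl was 4.24, 2.68, 7.04 and 2.35, and Nr1d2 over Arntl was 1.79, 0.769, 4.56 and 2.79. Both were lower in colon in both pairs, with a change of Nr1d1 of 0.632 (0.542 to 0.736) and 0.334 (0.224 to 0.499), as were 42.5% of all other genes by their intervals in both pairs. Set against Clock, Dbp was higher in colon, by 2.48 (2.11 to 2.91) times in the cDNA pair and 1.54 (1.14 to 2.08) times in the RNA pair. Clock itself was at percentiles 18.1 and 24.4 of the tissue ratios of these pairs, so a rise against it was common to most genes. Dbp over Cry1 changed by 1.28 (0.990 to 1.66) and 0.868 (0.488 to 1.54) times, and both intervals held 1. Without the last exon block of Dbp alone, Dbp over Arntl was 0.594 and 0.559 in the cDNA libraries. Arntl kept its own last block, and cDNA reads gathered toward the 3' ends. Leaving out this block therefore lowers the ratio there by itself and does not measure reads of Sphk2.

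**Figure D3:**
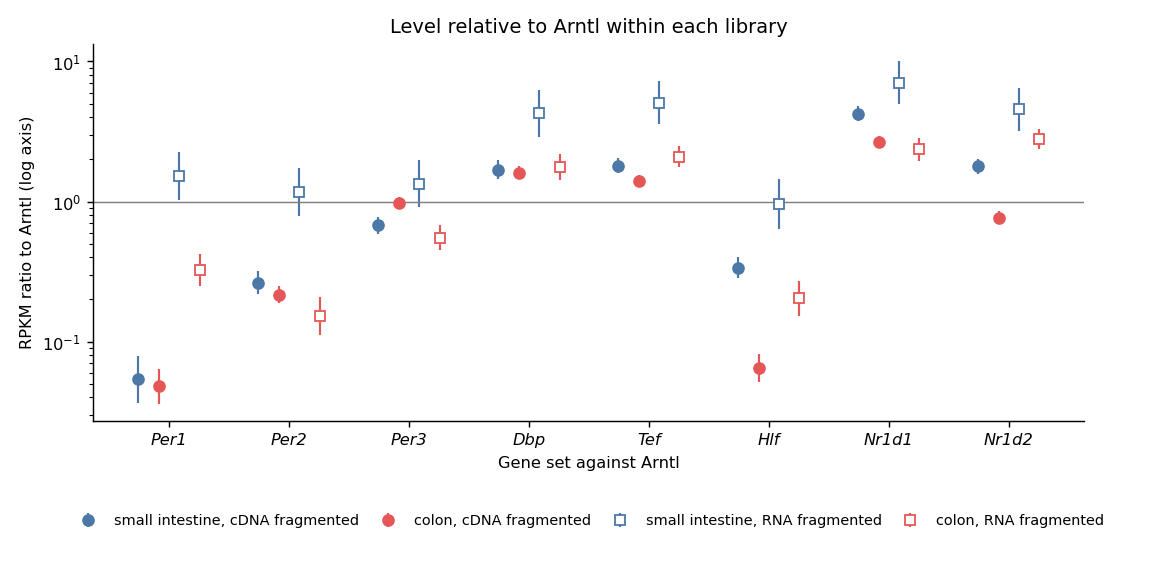
RPKM of 6 clock genes and of Nr1d1 and Nr1d2 divided by that of Arntl within each library (log axis, line at 1), with filled circles for cDNA fragmented and open squares for RNA fragmented libraries, blue for small intestine, red for colon and bars for 95% counting intervals. The small intestine RNA fragmented library lies highest for each of the 8 genes, whose ratios there all share the 35 reads of Arntl. Arntl was at the 43.2nd percentile of the RNA to cDNA ratios in small intestine. It was at the 85.1st percentile of the colon to small intestine ratios in the RNA pair. The share of all genes that lie highest in this library was not computed.

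A test of tissue was possible only across the protocols, with limma voom on all 14040 genes that passed the filter on low counts, where the libraries of a tissue from the 2 protocols stand in for replicates and 1 residual degree of freedom is left. The variance that limma pools over all genes entered with 37.3 prior degrees of freedom. The SE and p of a gene therefore rest mostly on that pooled variance, and little on how far its own tissue ratios differ between the protocols. All 10 clock genes passed the filter. Hlf alone was called, lower in colon by -1.46 ± 0.50 (log2, SE, limma adjusted p = 0.0392), where 14.6% of all genes were called and 7.19% were lower in colon. This call was lost with library sizes alone, without the filter, with at most 1 mismatch, without the protocol in the fit, without weights and with the last 1000 exonic bases only. The fitted difference in these was, in that order, -1.18, -1.45, -1.56, -1.45, -1.43 and -0.95. Of the rest, Arntl had 0.81 ± 0.45 (limma adjusted p = 0.253) and Clock -0.75 ± 0.38 (limma adjusted p = 0.210). The median of the 10 genes was 0.12, beside 0.10 over all genes tested. Per1 and Per2, whose tissue ratios turned with the protocol, had -0.46 ± 0.56 and -0.49 ± 0.50.

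Between protocols, 4 of the 10 genes were called, all higher in the RNA fragmented libraries, where 46.8% of all genes were called with 21.5% higher in RNA and 25.3% higher in cDNA. Per1 was higher by 3.64 ± 0.57 (log2, SE, limma adjusted p = 2.33e-06), which is 12.4-fold and the 97.6th percentile of all genes. Hlf was higher by 1.47 ± 0.50 (limma adjusted p = 0.0144), Clock by 0.92 ± 0.39 (limma adjusted p = 0.0469) and Tef by 0.92 ± 0.39 (limma adjusted p = 0.0485). The calls of Clock and Tef were lost with no filter (limma adjusted p = 0.0941 and 0.101), by start points (0.0971 and 0.131) and without weights (0.0564 and 0.0547). Their differences there were 0.84 and 0.84 with no filter, 0.64 and 0.58 by start points, and 0.92 and 0.93 without weights. Arntl at -0.05 ± 0.46 and Per3 at -0.11 ± 0.43 had the smallest differences. The median over the 10 genes was 0.75 beside -0.08 over all genes. Within each tissue the RNA to cDNA ratio of Per1 was 33.9 (21.9 to 54.0) in small intestine and 11.9 (8.30 to 17.2) in colon, while the median gene had 1.52 and 1.60. The intervals of 9 genes in small intestine and 8 in colon lay above 1, as did those of 46.8% and 51.3% of all genes. By the 3-fold rule Per1 and Tef were higher in RNA in small intestine, against 13% of genes, and Per1 in colon, against 13.5%.

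**Figure D4:**
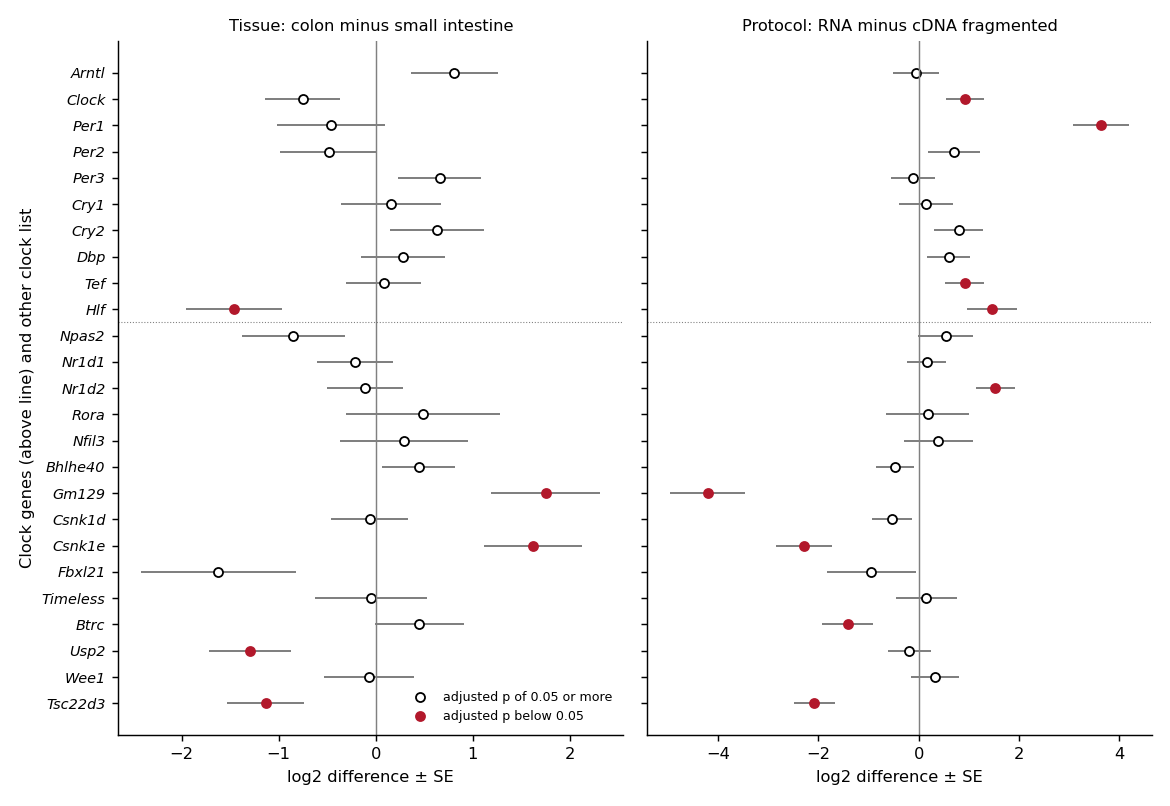
Fitted log2 differences ± SE from limma between tissues (left) and between protocols (right), for the 10 clock genes above the dotted line and 15 other clock genes below it, with filled red points for an adjusted p below 0.05. Between tissues Hlf is the one filled point among the 10, and between protocols Per1 has the highest value at 3.64.

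Where the reads lay along a gene differed between the protocols. The share of the reads in the last 1000 exonic bases had a median over the 10 genes of 57.8% and 56.1% in the cDNA libraries and 24.6% and 25.4% in the RNA libraries. Per3 differed most between the protocols, with 91.5% and 88.1% in the cDNA libraries against 16.7% and 12.4% in the RNA libraries. The highest share in colon cDNA was that of Dbp, at 93.5%, and the lowest in colon RNA that of Per2, at 8%. The window of 1000 bases covers a larger part of Dbp, the shortest of the 10 genes, than of the others. Shares are therefore not like for like between genes of unlike length. Arntl was the exception, with 50.9%, 51.8%, 51.4% and 52.1%. For Per1 the shares were 78.6%, 72.5%, 20.9% and 18.8%. The protocol difference was also fitted over the last 1000 bases alone. There Per1 was still higher in RNA, by 2.32 (log2, limma adjusted p = 0.00338), and Per3 was lower in RNA by -2.19 (limma adjusted p = 0.000622), while Clock, Tef and Hlf were no longer called, with values of 0.36, 0.75 and 0.60. Across all 14040 genes the protocol difference had a Spearman rho of 0.466 with exonic length and 0.187 with GC content, and the tissue difference one of -0.162 and 0.255, given as descriptions over genes that share the same 4 libraries. Of the 10 genes, Dbp at 61.6% and Per1 at 59.5% had the highest exonic GC content and Clock, at 42.1%, the lowest. Clock was also the longest, with 7478 bases, and Dbp the shortest, with 1678. Few reads crossed exon junctions of the 10 genes, 18, 17, 4 and 6 in all.

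**Figure D5:**
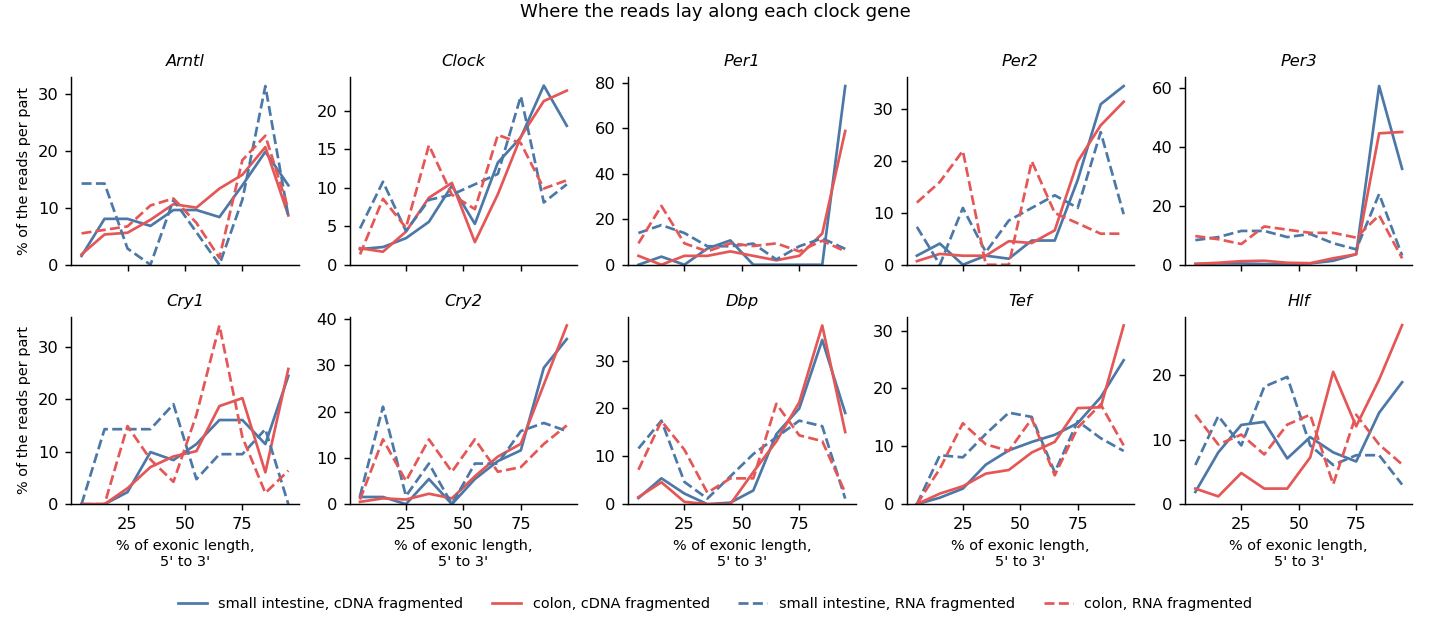
Share of the reads of each clock gene (%) in 10 equal parts of its exonic length from the 5' to the 3' end, with solid lines for cDNA fragmented and dashed lines for RNA fragmented libraries, blue for small intestine and red for colon; vertical axes differ between panels. The cDNA lines of Per1, Per3 and Cry2 rise at the 3' end, where 72.1% and 68.7% of the cDNA reads of Cry2 lay in the last 1000 bases.

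Of the further genes of the loop and its kinases, ligases and outputs, 17 are given here, all found among the exon blocks, and 15 passed the filter. Between tissues 4 of the 15 were called, where 14.6% of all genes were, and between protocols 5, where 46.8% were, with medians of -0.06 and -0.18, beside 0.10 and -0.08 over all genes. Higher in colon, as were 7.41% of all genes, were Gm129 (now Ciart, a repressor of the loop) by 1.75 ± 0.57 (limma adjusted p = 0.0297) and Csnk1e, a kinase of the PER proteins, by 1.62 ± 0.51 (limma adjusted p = 0.0234). Gm129 had 172 and 592 reads in the cDNA libraries but 0 and 12 in the RNA libraries, so its fitted value depends on how a count of 0 is treated. Csnk1e had 261, 1747, 25 and 38 reads, and 157 of the reads in colon cDNA began at 1 position. Its tissue ratio was 6.07 (5.33 to 6.94) in the cDNA pair and 0.889 (0.523 to 1.54) in the RNA pair, and counted by start points its fitted difference was 0.42 (limma adjusted p = 0.570). Lower in colon were Usp2, a deubiquitinase with a clock output isoform, by -1.30 ± 0.42 (limma adjusted p = 0.0309; it shares a block with Rnf26) and Tsc22d3, a glucocorticoid target, by -1.13 ± 0.40 (limma adjusted p = 0.0493). The ratio of Usp2 was below 1 in both pairs, at 0.608 and 0.353, whereas that of Tsc22d3 was 0.384 in the cDNA pair and 0.930 (0.761 to 1.14) in the RNA pair. With start points neither these nor Gm129 were called, with limma adjusted p of 0.0667, 0.0834 and 0.0570 for Usp2, Tsc22d3 and Gm129. The same 3 calls were lost with no filter (0.0994, 0.138 and 0.114), with at most 1 mismatch (0.0662, 0.0656 and 0.0736) and without the protocol in the fit, and those of Usp2 and Tsc22d3 also with library sizes alone (0.0980 and 0.209). The fitted differences of Usp2, Tsc22d3 and Gm129 were -1.05, -0.82 and 1.499 by start points, -1.28, -1.13 and 1.70 with no filter, and -1.33, -1.18 and 1.66 with at most 1 mismatch. Csnk1e was not called with no filter, at most 1 mismatch, no protocol term or no weights either, and Tsc22d3 not without weights.

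Between protocols, Nr1d2 was higher in RNA by 1.53 ± 0.39 (limma adjusted p = 0.00151). Lower in RNA were Gm129 by -4.21 ± 0.74, Csnk1e by -2.28 ± 0.56, Tsc22d3 by -2.07 ± 0.41 and Btrc, a ligase subunit that targets PER, by -1.42 ± 0.50 (limma adjusted p = 1.71e-05, 0.000991, 6.89e-05 and 0.0196). Csnk1e had -0.51 by start points (limma adjusted p = 0.388). Btrc was not called with library sizes alone (-0.76, limma adjusted p = 0.209), and over the last 1000 bases it turned to 1.66 (limma adjusted p = 0.0745). Of the genes not called, Nr1d1, the repressor of Arntl, stood at 20.9, 24.5, 41.7 and 38.0 RPKM, above each of the 10 genes in every library, and shares its last block with Thra on the other strand. Npas2, a paralogue of Clock, stood at 1.60, 1.81, 7.17 and 1.93 RPKM. Its tissue ratio was 1.14 (0.912 to 1.42) in the cDNA pair and 0.269 (0.165 to 0.427) in the RNA pair, with a quotient of 0.236 (0.144 to 0.388), next to that of Per2. Bhlhe40, an E-box repressor, differed between tissues by 0.44 ± 0.38. Rorb and Bhlhe41 had 0 reads in small intestine by either protocol, and a count of 0 allows up to 3 reads. In colon cDNA and colon RNA, Rorb had 0 and 2 reads, under that limit, and Bhlhe41 had 2 and 13.

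The genes whose 4 levels lay nearest to those of a clock gene were sought by the distance of log2 RPKM, centred over the libraries, among 5282 genes with at least 50 reads in each library. For Arntl these were Stx17, Unc50, Cox15, Arfip2 and Mpzl1, at distances of 0.0838 to 0.107. For Dbp they were Plcl2, Ncapd2, Lgals3bp, Sys1 and Setdb1, at distances of 0.0901 to 0.152. Tef, the nearest clock gene to Dbp, came 63rd at 0.355, and Arntl was 1.16 from Dbp. With 4 libraries many genes lie close by. Arntl itself, with 35 reads in small intestine RNA (4.12 to 8.24 RPKM), lay below the limit of 50 reads set for the other genes. The distances given for Arntl are small beside that counting error.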

How the data were processed

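The authors deposited, per library, matches of single 35-color SOLiD reads to exon blocks and junctions of the RefSeq genes of mm9 (corona, per the file headers, with only uniquely placed reads kept), as positions, strands and color mismatches with no normalized values. Of 200217 blocks, 198576 were given a gene of GENCODE M1. The 1703 blocks that coding genes of both strands claimed went to the strand with more reads in the RNA fragmented libraries, and 378 of them changed gene by this. Reads were counted per gene, and the numbers of unique reads and start points equalled those of the authors' reports in all 4 libraries. Detection required a level above 0.01 RPKM from 2 or more start points. Intervals of a gene's ratio between 2 libraries are exact, conditional on the sum of the 2 counts. Ratios of 2 genes within a library, and ratios of ratios, use the normal interval of log counts. Depth ran from 2035386 to 24798934 reads, and 3 reads were taken as the limit that a count of 0 allows.

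Tissue and protocol were fitted together in limma 3.58.1 (voom, R 4.3.3) with trimmed-mean scaling and a filter at 10 reads in the median library and 15 in all, with Benjamini-Hochberg adjustment over all genes tested. The design had named a quasi-likelihood count test; limma on the reads counted here was used in its place, and that test was not run. Simulated counts for the tissue effect gave 166 of 200 genes changed 4-fold, with 4 false calls among 14040 genes. The simulation had additive tissue and protocol effects, no tissue effect outside the 200 genes and 1 fixed dispersion. It therefore does not measure the error of the test on the real libraries, where tissue ratios differed between protocols. Groups came from the labels, and the members, gene lists and tests were chosen with earlier results of these data known. The genes named came from the 10 members, 17 others of the loop and the 5 nearest of Arntl and Dbp, and 2 genes planned beside these 17 are not reported here. Alternatives were median-of-ratios scaling, library sizes alone, no filter, start points, at most 1 mismatch, the last 1000 bases, the gene's strand only, a penalty of 0.1 RPKM and no protocol term. After the data were seen, a fit without weights, Dbp without its last block and the last 1000 bases for tissue were added.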

Additional observations from a re-analysis of the deposited data

Results flagged for a closer look

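Of the genes described here, 4 had colon to small intestine ratios whose counting intervals lay on opposite sides of 1 in the 2 protocols. Per1 had 1.65 in the cDNA fragmented pair and 0.578 in the RNA fragmented pair, and Per2 had 1.52 and 0.357. Csnk1d had 1.54 and 0.795. Nr1d2 had 0.796 and 1.67, with colon the higher tissue in the RNA pair. The difference between protocols was not tested beyond counting error, since each ratio rests on 1 library a tissue, and 10.4% of all genes detected in the 4 libraries had such opposite intervals.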

How the results depend on the processing

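The tissue test called 2049 genes, and 0 without the protocol term (781 at an unadjusted p under 0.05) and 1293 without the filter, of 17368 tested. With library sizes alone 67.4% of tissue calls were higher in colon, against 50.8%, and the median gene moved from 0.10 to 0.38. The protocol calls higher in RNA moved from 45.9% to 69.2% and the median from -0.08 to 0.57. Of the 10 clock genes, the 1 tissue call became 0 with library sizes alone, no filter, at most 1 mismatch, no protocol term, no weights or the last 1000 bases. Over all genes, tissue calls were then 2246 of 14040, 1293 of 17368, 1565 of 13094, 0 of 14040, 1881 of 14040 and 1877 of 12775, in that order. The limma adjusted p of Hlf ran from 0.0572 to 0.9996 in these settings, with the same direction. The 4 protocol calls became 7 with library sizes alone, and 2 with no filter, start points, no weights or the last 1000 bases. Over all genes, protocol calls were then 6989 of 14040, 5858 of 17368, 5956 of 13807, 6399 of 14040 and 4422 of 12775, in that order. The 2 over the last 1000 bases were Per1, higher in RNA, and Per3, which was lower in RNA and not called before. Genes past the 3-fold rule rose to 1779 (cDNA pair) and 2254 (RNA pair) with a penalty of 0.1 RPKM, and to 2050 in the RNA pair over the last 1000 bases, where 1 clock gene, Per2, passed. Dbp over Arntl moved to 1.34 in colon cDNA by start points, to 1.21 in colon RNA over the last 1000 bases, and to 0.594 and 0.559 in the cDNA libraries without the last Dbp block. Over the last 1000 bases the RNA to cDNA change of the ratio to Arntl turned in small intestine for Per3 (0.357) and Hlf (0.997), and in colon for Dbp (0.722) and Tef (0.914), and the protocol difference of Btrc turned to 1.66. With median-of-ratios scaling the log2 tissue ratio of Nr1d1 in the cDNA pair, whose interval lay above 0, turned to -0.18. In the RNA pair those of Per3, Cry2, Dbp and Tef, whose intervals held 0, turned to -0.17, -0.30, -0.16 and -0.18. Npas2, Rora, Timeless and Wee1 in the cDNA pair, and Timeless, Btrc and Wee1 in the RNA pair, also turned, from intervals that held 0. The causes were not tested. The planned Wald test was not run. The fit with the protocol term compared tissues within a protocol. No pairing by animal was possible because the labels do not say which mice gave which library. Leaving out 1 library gives no test, since 3 libraries leave no residual degrees of freedom. Depth limits the RNA pair most, where Cry1 and Arntl had 21 and 35 reads in small intestine.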
